A study of Mus musculus with 194 samples.

Results

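Maf, Sox6, Satb1 and Zeb2 encode 4 transcription factors known for the late development of cortical interneurons, and the insertions recorded at their genes are described here for every group of a calling cards study of the mouse brain. The 4 genes were chosen by name from the 21627 protein-coding genes of the autosomes and the X chromosome, after insertions at such loci had been seen to differ between the Syn1Cre and GFAPCre animals. That comparison is therefore given as a description, without a test. A locus is the gene body in the GRCm38 annotation plus 10 kb on each side, and for Maf a region of 200 kb around the gene was added. Each value is in counts per 1000000 (CPM), here the insertions in the locus over all insertions of that animal's table.

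In the calling cards method, a virus delivers a transposon together with the piggyBac transposase, and insertions of the transposon into the genome, always at the letters TTAA, stay as a record of where the transposase was. Unfused piggyBac is known to insert near active enhancers and super-enhancers, while a transposase fused to a transcription factor leaves extra insertions near the sites that factor binds. Most tables came from self-reporting transcripts (SRT), RNA that starts inside the transposon and runs into the flanking genome. In the BrokenHeart tables the insertions were read from DNA instead.

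All 46 animals, in 11 groups, received adeno-associated virus at birth or one day later, and the tissue was cortex except in 1 group. C57bl6J animals received viruses that act without Cre (n = 2). Syn1Cre and Syn1CreNeg animals were Cre-positive and Cre-negative for a Cre named after the promoter of Syn1, a pan-neuronal gene (n = 6 each), and GFAPCre and GFAPCreNeg animals likewise for GFAP, an astrocyte gene (n = 6 each). Frontflip_GFAPCre and Frontflip_GFAPCreNeg (n = 3 each) carry a construct name, Frontflip, that the labels do not explain. Syn1Cre_SP1_P10 (n = 3) and Syn1Cre_SP1_P28 (n = 4) are the groups whose transposase is known from the study as a fusion to SP1, a zinc finger factor that binds GC boxes, collected at postnatal day 10 and 28. The labels give no age at collection for the other groups. Rbp4Cre_TRAP libraries (n = 4) came from the whole forebrain after purification of ribosome-bound RNA from Rbp4Cre-marked cells, and Rbp4Cre is known to mark layer 5 pyramidal neurons. BrokenHeart animals (n = 3) gave the DNA-based tables. A single table of N2a, a mouse neuroblastoma line, combines several experiments and has no replicate. The labels do not say how separate litters or virus batches were spread over animals, so the spread between animals may be partly technical. In bulk tissue, fewer marked cells of a type and fewer insertions per cell cannot be told apart.

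As background, Maf is a large MAF-family leucine zipper factor, Sox6 is a SoxD factor, Satb1 is a CUT-domain homeobox factor that organises chromatin, and Zeb2 is a zinc finger homeobox repressor. All have been described in interneurons born in the medial ganglionic eminence, where between them they act in migration, in the choice between somatostatin and parvalbumin fates and in maturation. They are not restricted to these cells: Sox6 also acts in glial progenitors, Satb1 and Zeb2 also in excitatory neurons, and Zeb2 in oligodendrocytes and microglia.

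The 4 loci differ in size and in what else they hold. Maf lies on chromosome 8 from 115703253 to 115706894, a gene of 3642 bases in a locus of 23.6 kb that also touches the long non-coding RNA genes Gm51552 and Gm30712. Sox6 lies on chromosome 7 from 115470872 to 116040776 on the minus strand, so that its locus spans 590 kb and includes Gm51455 and Sox6os. Satb1 (chromosome 17, 51736187 to 51833290, minus strand) has a locus of 117 kb, and Zeb2 (chromosome 2, 44983512 to 45117442, minus strand) one of 154 kb that includes Mir5129 and Zeb2os. Insertions in such an overlap cannot be assigned to either gene.

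The promoter windows at the starts of 3 of the genes show where a transposon could land and where SP1's motif occurs. Each sequence runs from 250 bases before to 50 bases after an annotated start, from RefSeq on GRCm38.p6, on the minus strand and read 5′ to 3′. Capitals mark TTAA, the only letters at which piggyBac inserts, and the GC boxes GGGCGG or CCGCCC bound by SP1, with both strands searched and no overlap between the 2 motifs. Of 32619 promoter windows of this length, 52.4% hold a TTAA and 35.9% hold a GC box. The Zeb2 windows carry many insertions at their TTAA, Sox6 promoter 2 and Satb1 promoter 2 are rich in GC boxes, and Sox6 promoter 1 lies near the upstream end of the gene.
Zeb2 promoter 1: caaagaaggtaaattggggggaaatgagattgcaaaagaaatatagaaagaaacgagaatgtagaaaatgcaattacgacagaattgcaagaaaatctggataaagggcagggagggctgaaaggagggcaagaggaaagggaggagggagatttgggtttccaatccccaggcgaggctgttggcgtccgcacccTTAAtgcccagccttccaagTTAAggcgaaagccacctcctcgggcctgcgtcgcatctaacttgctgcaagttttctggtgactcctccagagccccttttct
Zeb2 promoter 2: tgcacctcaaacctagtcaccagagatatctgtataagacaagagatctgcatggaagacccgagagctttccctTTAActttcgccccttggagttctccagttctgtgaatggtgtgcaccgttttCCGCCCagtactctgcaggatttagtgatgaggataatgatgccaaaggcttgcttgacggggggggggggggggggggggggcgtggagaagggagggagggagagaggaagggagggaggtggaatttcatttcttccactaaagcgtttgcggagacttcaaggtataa
Sox6 promoter 1: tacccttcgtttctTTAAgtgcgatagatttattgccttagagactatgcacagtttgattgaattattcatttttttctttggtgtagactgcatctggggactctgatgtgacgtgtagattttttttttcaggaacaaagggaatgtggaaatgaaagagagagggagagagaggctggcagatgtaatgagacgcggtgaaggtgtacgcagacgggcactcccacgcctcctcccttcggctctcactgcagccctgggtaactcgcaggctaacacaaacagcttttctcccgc
Sox6 promoter 2: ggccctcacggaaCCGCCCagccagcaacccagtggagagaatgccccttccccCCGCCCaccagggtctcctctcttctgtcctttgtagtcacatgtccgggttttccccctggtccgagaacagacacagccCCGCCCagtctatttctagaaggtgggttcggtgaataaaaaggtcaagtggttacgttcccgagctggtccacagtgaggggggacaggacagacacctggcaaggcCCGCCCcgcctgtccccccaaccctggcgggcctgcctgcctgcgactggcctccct
Satb1 promoter 2: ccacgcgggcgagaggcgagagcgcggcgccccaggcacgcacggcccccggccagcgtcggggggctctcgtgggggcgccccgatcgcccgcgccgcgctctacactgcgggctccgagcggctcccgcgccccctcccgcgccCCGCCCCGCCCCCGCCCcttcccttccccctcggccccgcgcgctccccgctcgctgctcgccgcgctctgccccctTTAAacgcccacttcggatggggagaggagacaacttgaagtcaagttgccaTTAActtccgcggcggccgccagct

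Zeb2 promoter 1 (chr2:45117393-45117692) held 343 insertions at its 2 TTAA over the 47 tables, and Zeb2 promoter 2 (chr2:45113230-45113529) held 167 at its single TTAA. Sox6 promoter 1 (chr7:116038695-116038994) held 27 insertions at 1 TTAA. Satb1 promoter 2 (chr17:51832598-51832897) has 2 TTAA, 3 GC boxes and a G+C content of 76.7%, and held 0 insertions. Sox6 promoter 2 (chr7:116030998-116031297) has 4 GC boxes, a G+C content of 63.3% and no TTAA, so no insertion could be recorded inside it. A TTAA or a GC box in these windows is a match of letters and was not tested as a site. The table used has no entry for Maf, and none of its sequence is printed.

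Depth set the precision. The tables held 24408 to 2186743 insertions, leaving out Frontflip_GFAPCreNeg, whose 3 tables held 2341 to 9601 and were used in no comparison. C57bl6J had the deepest tables (1545951 and 2186743), followed by Syn1Cre (443158 to 1364948) and GFAPCre (600443 to 1505413). The Rbp4Cre_TRAP tables had 24408 to 57014 insertions, so 1 insertion there is worth many more CPM than in a Syn1Cre table. A cortex was cut into 10 pieces before library preparation. No animal's table had more than 20 insertions at 1 position, while the N2a table had up to 52. At Zeb2, 42.3% and 48.2% of the insertions in the 2 C57bl6J tables lay at positions with at least 8 insertions, against none in Syn1Cre_SP1_P10, Rbp4Cre_TRAP and BrokenHeart. At Maf no table had a position with 8 or more.

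At Maf, the Syn1Cre group had the highest mean. Animals 1 to 6 had 62.4, 42.9, 51.5, 51.3, 54.2 and 64.0 CPM, a mean of 54.4 ± 7.83 (SD, n = 6). The 2 C57bl6J animals had 39.5 and 32.9, just below the lowest Syn1Cre animal. The GFAPCre animals had 8.28, 6.64, 15.0, 12, 8.13 and 10.3, a mean of 10.1 ± 3.06 (SD, n = 6). The highest GFAPCre animal lay far below the lowest Syn1Cre animal.

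Without Cre the Maf locus stayed near the GFAPCre level. Syn1CreNeg ranged from 0 to 20.5 with a median of 13.5 (n = 6), and GFAPCreNeg from 2.24 to 17.3 with a median of 8.33 (n = 6). The 3 Frontflip_GFAPCre animals had 0, 6.23 and 12.2. All of these lay below the lowest Syn1Cre animal, and they overlapped with one another and with GFAPCre.

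With the SP1 fusion the Maf locus took an intermediate place. Syn1Cre_SP1_P28 animals had 25.9, 36.7, 36.5 and 34.6 CPM, and Syn1Cre_SP1_P10 animals 11.5, 44.6 and 42.0, the day 10 values resting on 1, 4 and 4 insertions. In BrokenHeart 1 animal had 34.3 and the other 2 had 0. The order of group means ran from Syn1Cre (54.4) to C57bl6J (36.2), Syn1Cre_SP1_P28 (33.4) and Syn1Cre_SP1_P10 (32.7), and then to 5 groups between 11.4 and 6.15. Syn1Cre and C57bl6J differed by more than the larger SD, whereas the neighbours from C57bl6J to Syn1Cre_SP1_P10, and those from BrokenHeart to Frontflip_GFAPCre, did not.

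No insertion was recorded at the Maf locus in the Rbp4Cre_TRAP libraries or in the cell line. All 4 Rbp4Cre_TRAP libraries had 0 insertions there, 0 of 171808 in all, and 3 counts of that total correspond to 17.5 CPM, so the level was at least 3.12-fold lower than in Syn1Cre. N2a had 0 of 805993, or below 3.72 CPM by the same floor, which is at least 14.6-fold lower than in Syn1Cre. Floors like these cover counting error only.

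**Figure D1:**
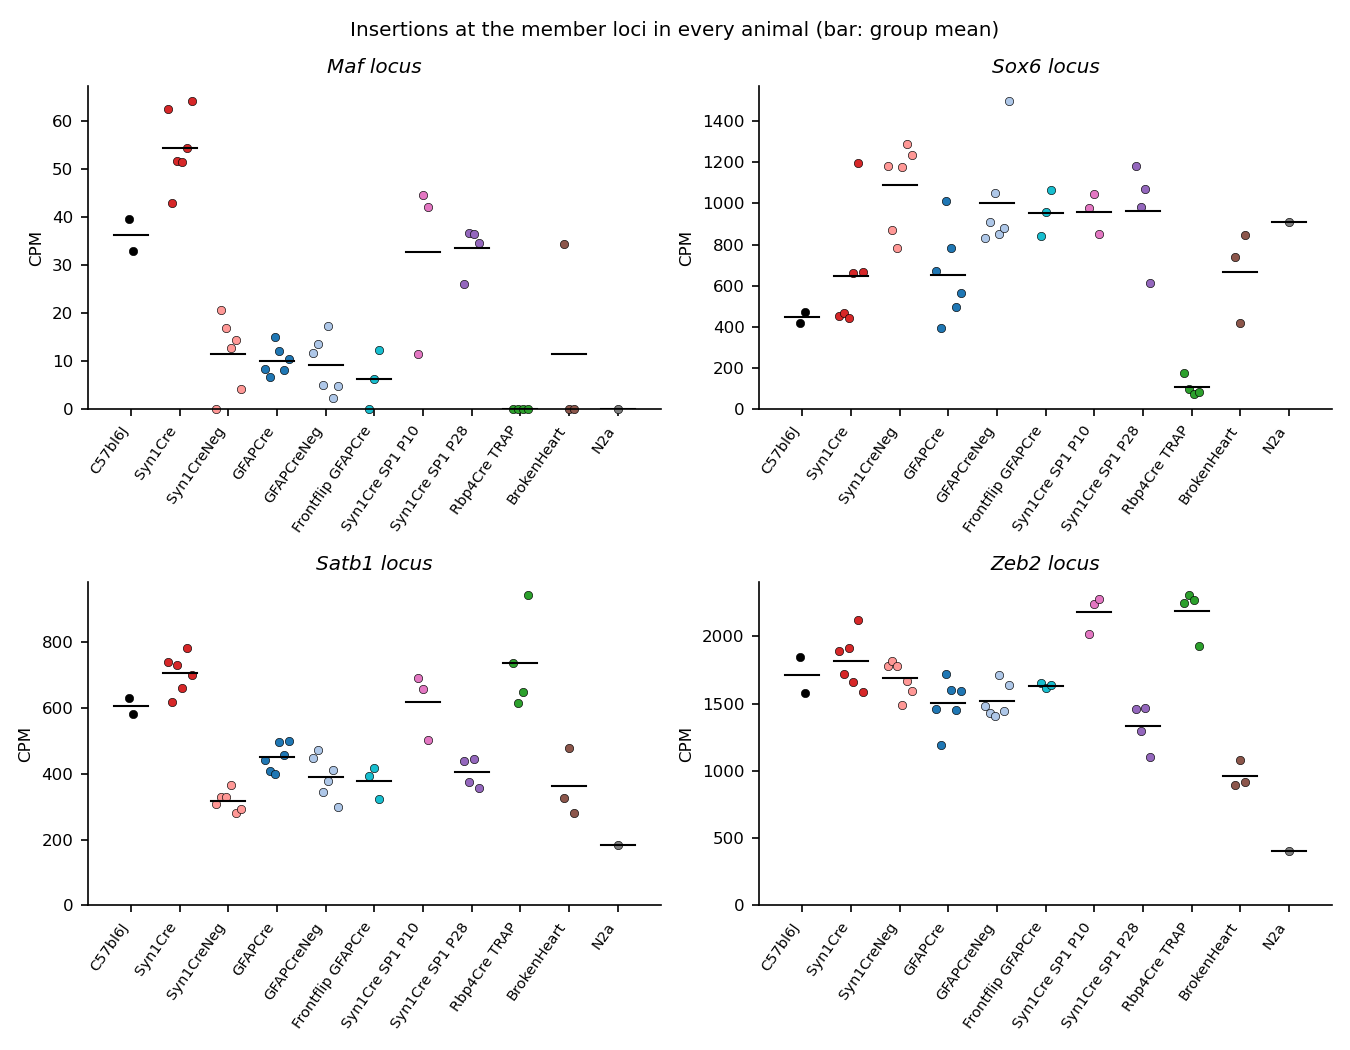
CPM at the Maf, Sox6, Satb1 and Zeb2 loci (y axes), 1 point per animal with the group mean as a bar, groups on the x axis and N2a as a single table. The Syn1Cre animals sit at 42.9 or higher at Maf and all GFAPCre animals at 15.0 or lower, whereas at Sox6 the 6 Syn1CreNeg animals, from 781 to 1288, lie above most Syn1Cre animals.

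Within the Maf locus the difference was not confined to the gene itself. Syn1Cre animals averaged 20.3 ± 5.52 CPM in the gene body, 14.5 ± 3.16 in the 10 kb on its lower-coordinate side and 19.5 ± 3.16 in the 10 kb on its higher-coordinate side (SD, n = 6), against 2.50, 2.78 and 4.77 in GFAPCre. The rest of the 200 kb region held a further 45.4 ± 11.8 in Syn1Cre, 11.7 ± 4.34 in GFAPCre and 7.92 ± 2.51 in Syn1CreNeg. Over the whole region, chr8:115600001-115800000, Syn1Cre ranged from 81.2 to 116 and Syn1CreNeg from 9.31 to 30.8. Syn1Cre was higher on both sides of the gene as well as in it.

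The insertions at Maf were spread over many TTAA positions. The locus had 581 insertions at 94 positions over all tables, 6.18 per position, and at most 6 of them at 1 position in any table. Several positions of equal rank stood at the top with 29 insertions each: 1 at 115703641, in the gene body 388 bases from its lower end and seen in 13 of the 47 tables, and 1 at 115711695, 4.80 kb above the gene and seen in 15 tables. At 115703641 only 3.45% of the insertions were on the plus strand, against 58.6% at 115711695.

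At Sox6, Syn1Cre was lower than Syn1CreNeg, the opposite of Maf. Syn1CreNeg animals 1 to 6 had 1182, 872, 781, 1176, 1288 and 1235 CPM, a mean of 1089 ± 209 (SD, n = 6). Syn1Cre animals had 450, 466, 442, 659, 1196 and 667, a mean of 647 ± 288 (SD, n = 6). Animal 5 of Syn1Cre lay within the Cre-negative range and the other 5 lay below it.

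The GFAP groups differed in the same direction at Sox6. GFAPCre had 673, 396, 1011, 784, 496 and 563 CPM, with a median of 618, and GFAPCreNeg had 832, 910, 1050, 853, 880 and 1500, with a median of 895. GFAPCre animal 3 alone lay within the GFAPCreNeg range. Frontflip_GFAPCre (842, 959 and 1065), Syn1Cre_SP1_P10 (979, 1047 and 850) and 3 of the 4 Syn1Cre_SP1_P28 animals (1182, 982 and 1069, with the last at 615) were near the Cre-negative levels.

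The lowest Sox6 levels were in Rbp4Cre_TRAP and C57bl6J. The 4 Rbp4Cre_TRAP libraries had 175, 99.3, 74.9 and 82.0 CPM, from 10, 5, 3 and 2 insertions, a mean of 108 ± 46.2 (SD, n = 4). The C57bl6J animals had 417 and 473, and N2a had 911. The gap between C57bl6J and Rbp4Cre_TRAP was larger than the SD with no overlap, while most other neighbours in the order of means did not differ by more than the larger SD.

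Satb1, like Maf, was high in Syn1Cre. Syn1Cre animals had 739, 618, 729, 662, 781 and 700 CPM, a mean of 705 ± 58.1 (SD, n = 6), against 307, 328, 328, 365, 282 and 293 in Syn1CreNeg, a mean of 317 ± 29.7 (SD, n = 6). GFAPCre ranged from 400 to 499 (median 449) and GFAPCreNeg from 298 to 472 (median 394). No Syn1Cre animal overlapped with any animal of these 3 groups.

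Satb1 was also high in the Rbp4Cre_TRAP libraries. Rbp4Cre_TRAP had 737, 616, 649 and 943, a mean of 736 ± 147 (SD, n = 4), within 1 SD of the Syn1Cre mean. Syn1Cre_SP1_P10 had 691, 657 and 504 and C57bl6J 631 and 583. Lower levels were seen in Syn1Cre_SP1_P28 (440, 376, 444 and 358), Frontflip_GFAPCre (394, 417 and 324), BrokenHeart (326, 479 and 282) and N2a (184).

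Zeb2 had the highest mean of the 4 loci in each of the 10 animal groups used in comparisons, and in N2a Sox6 was higher. Per 100 kb of locus the Syn1Cre means were 1179 CPM at Zeb2, 602 at Satb1, 230 at Maf and 110 at Sox6. Syn1Cre animals had 1888, 1720, 1914, 1658, 2121 and 1587 CPM at Zeb2, and Syn1CreNeg animals 1777, 1815, 1781, 1487, 1671 and 1594. The 2 groups overlapped over most of their range.

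Across the other groups Zeb2 varied less than Maf. Rbp4Cre_TRAP had 2245, 2304, 2272 and 1926, and Syn1Cre_SP1_P10 had 2015, 2239 and 2277. GFAPCre ranged from 1195 to 1721 (median 1528) and GFAPCreNeg from 1407 to 1710 (median 1462). Syn1Cre_SP1_P28 was lower at 1462, 1294, 1464 and 1100, and BrokenHeart, at 892, 1080 and 917, was the lowest animal group, with no overlap with Syn1Cre_SP1_P28. N2a had 403.

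In the comparison that chose the members, Syn1Cre exceeded GFAPCre by a log2 fold change of 2.46 (SE 0.19) at Maf, 2.12 over the Maf region, 0.59 at Satb1 and 0.22 at Zeb2, and the value at Sox6 was −0.06. In that comparison 2.15% of 11550 loci passed an adjusted p of 0.05 in edgeR (1.19% higher and 0.961% lower). These values are a description. With distinct positions counted in place of insertions the Sox6 value turned to 0.05.

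Syn1Cre was next compared with Syn1CreNeg, its Cre-negative counterpart, with edgeR's quasi-likelihood test and Benjamini-Hochberg adjustment over all loci. The Syn1Cre animals are the same as in the comparison that chose the members, so the values at the 4 loci are not independent of that choice. Maf and the Maf region entered the test only through Syn1Cre, the group for which Maf was chosen. Their adjusted p values therefore add no support. Maf was higher in Syn1Cre by 2.29 on the log2 scale (SE 0.28, adjusted p = 3.04e-06), the Maf region by 2.48 (SE 0.22, adjusted p = 1.07e-08) and Satb1 by 1.13 (SE 0.12, adjusted p = 2.39e-07). Sox6 fell by 0.79 (SE 0.20, adjusted p = 0.00402). Of Sox6, Satb1 and Zeb2, 1 was higher and 1 was lower, where 31.0% of all 8610 loci passed (13.5% higher and 17.5% lower). With Maf, which is left out of that count, the median over the 4 loci was 0.61 against 0.01 over all, as a description. At Zeb2 the log2 fold change was 0.09 (adjusted p = 0.538), and it turned to −0.39 when each position was counted once. The labels show different layouts for animals 1 to 3 and 4 to 6: within the first, Maf had 2.03 (adjusted p = 0.0150), Sox6 −1.07 (adjusted p = 3.28e-07) and Satb1 1.10 (adjusted p = 3.83e-06), and within the other 2.49 (adjusted p = 7.24e-05), −0.52 (adjusted p = 0.0441) and 1.23 (adjusted p = 3.36e-05). No sequencing pool held Syn1Cre together with another group, so the effects of pool and of group cannot be told apart.

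**Figure D2:**
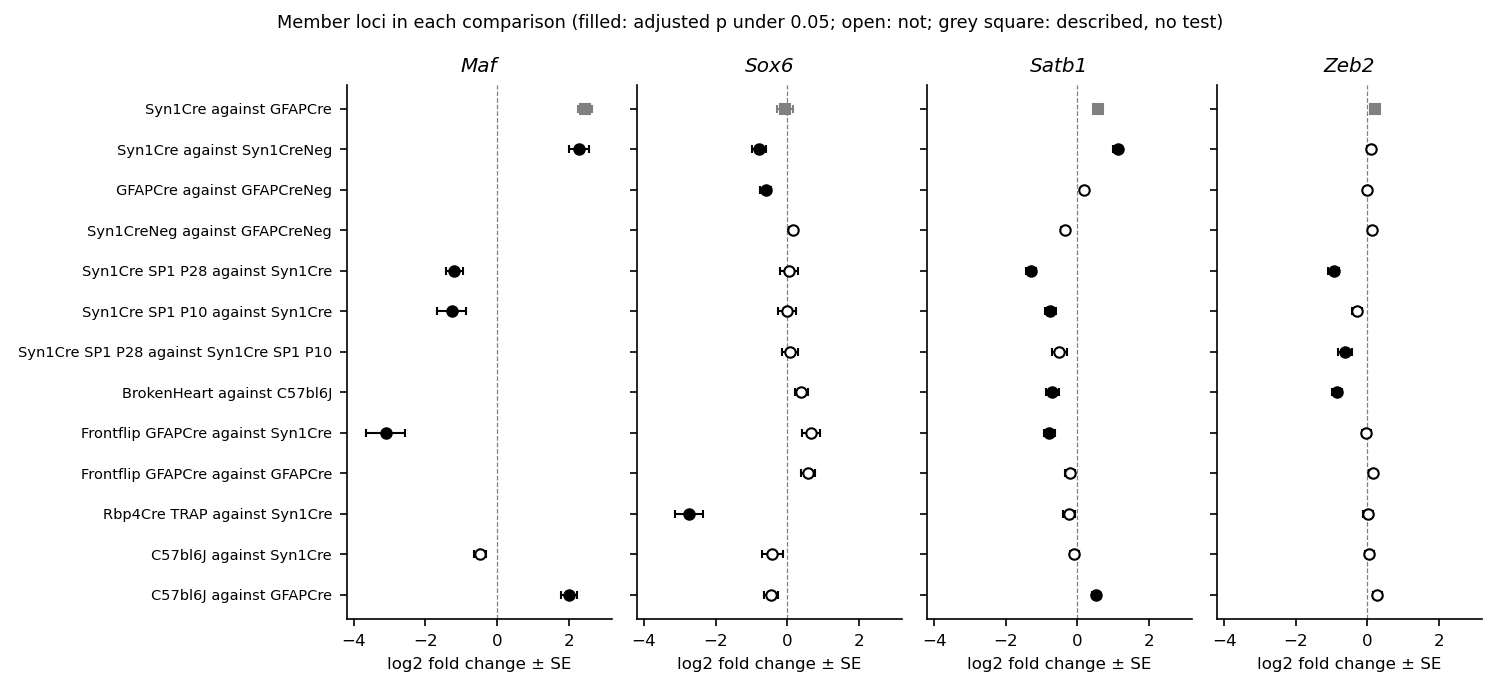
Log2 fold change of each member locus (x axis) in each comparison (y axis), with SE bars; filled points have an adjusted p under 0.05, open points do not, and grey squares mark Syn1Cre against GFAPCre, which is shown without a test. Maf is drawn where it was tested and not for Rbp4Cre_TRAP, where all libraries had 0; it lies at 2.29 and Sox6 at −0.79 for Syn1Cre against Syn1CreNeg.

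GFAPCre against GFAPCreNeg gave a call at 1 locus only. Sox6 was lower with Cre by 0.60 on the log2 scale (log2 fold change −0.60, SE 0.16, adjusted p = 0.0187), 1 of 3 loci tested where 8.12% of 9201 loci passed (2.23% higher and 5.89% lower). Among animals that shared sequencing pools it was −0.74 (adjusted p = 0.0226), and without GFAPCre animal 2 it was −0.49 with an adjusted p of 0.0540. Satb1 (0.19, adjusted p = 0.270), Zeb2 (−0.01, adjusted p = 0.983) and the Maf region (0.08, adjusted p = 0.875) did not pass, and the Maf locus had too few insertions to be tested. Whether Maf responds differently to Cre in the Syn1 and GFAP lines was not tested as an interaction.

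Between Syn1CreNeg and GFAPCreNeg 0 of 3 loci tested passed in edgeR, where 0.0426% of 7038 loci did (0.0284% higher and 0.0142% lower), and 0 passed in DESeq2. The adjusted p was 0.682 at Sox6, 0.227 at Satb1 and 0.656 at Zeb2, and only Satb1 had an unadjusted p under 0.05 (0.00694, 1 of 3 loci). Without GFAPCreNeg animal 6, Sox6 (0.30, adjusted p = 0.0402) and Satb1 (−0.40, adjusted p = 0.0148) passed.

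The C57bl6J animals, whose viruses act without Cre, were set against both Cre groups. Against GFAPCre, Maf was higher by 2.01 on the log2 scale (SE 0.22, adjusted p = 5.24e-07), the Maf region by 1.77 (adjusted p = 5.02e-09) and Satb1 by 0.52 (SE 0.11, adjusted p = 0.00191). That is 2 of 4 loci higher and none lower, where 12.5% of 13252 loci passed (7.03% higher and 5.51% lower), with a median over the 4 of 0.40. The C57bl6J animals took no part in the choice of the members, though the GFAPCre animals did. Sox6 had −0.45 (adjusted p = 0.145) and Zeb2 0.28 (adjusted p = 0.127). With distinct positions in place of insertions Satb1 had 0.14 (adjusted p = 0.546), and without C57bl6J animal 1 it had 0.49 (adjusted p = 0.0690).

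Against Syn1Cre, C57bl6J gave 0 calls among the 4 loci, where 0.810% of 14441 loci passed in edgeR (0.789% higher and 0.0208% lower). Maf had −0.47 (adjusted p = 0.238), with an unadjusted p of 0.0141, and 1 of the 4 loci had an unadjusted p under 0.05. DESeq2 also gave 0 calls. A replicate spread estimated with only 2 C57bl6J animals limits this comparison.

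The layer 5 libraries were compared with Syn1Cre, whose animals took part in the choice of the members, so the values are not independent of that choice. Sox6 fell by 2.73 on the log2 scale (SE 0.39, adjusted p = 2.69e-05). Of Sox6, Satb1 and Zeb2 that is 1 of 3 lower and none higher, where 2.10% of 10690 loci passed (0.196% higher and 1.91% lower) and the median over all loci was −0.31. Maf is left out of that count: it entered the test only through Syn1Cre, the group for which it was chosen, and all Rbp4Cre_TRAP libraries were at 0. Its adjusted p of 0.00707 therefore adds nothing to the bound of at least 3.12-fold lower. The Maf region had −3.33 (adjusted p = 0.00140) from 2 Rbp4Cre_TRAP insertions. It too entered the test only through Syn1Cre, so its adjusted p adds no support. DESeq2 gave Maf no adjusted p, and in the gene body alone Maf did not pass (adjusted p = 0.162). Satb1 (−0.23, adjusted p = 0.521) and Zeb2 (0.02, adjusted p = 0.967) did not pass either. The Zeb2 value rose to 0.94 (adjusted p = 9.63e-06) when each position was counted once, and Rbp4Cre_TRAP had 95.2 to 97.2% of its insertions at distinct positions against 65.4 to 73.2% in Syn1Cre. The tissue, the cells and the library type all differ between these groups and their parts in the result cannot be told apart.

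Frontflip_GFAPCre was compared with Syn1Cre and with GFAPCre, whose animals took part in the choice of the members, so the values are not independent of that choice. Against Syn1Cre, Satb1 fell by 0.78 on the log2 scale (SE 0.15, adjusted p = 0.00501). Of Sox6, Satb1 and Zeb2 that is 1 of 3 lower, where 3.44% of 12107 loci passed (2.54% higher and 0.909% lower). Maf had −3.11 (SE 0.55, adjusted p = 0.00214) from 3 Frontflip_GFAPCre insertions. Maf is left out of that count: it entered the test only through Syn1Cre, the group for which it was chosen. Its adjusted p therefore adds no support. Satb1 had −0.72 (adjusted p = 0.0665) without Frontflip_GFAPCre animal 3 and −0.25 (adjusted p = 0.429) with distinct positions, and in the gene body alone Maf had −3.18 (adjusted p = 0.0656). Sox6 had 0.67 (adjusted p = 0.168) and Zeb2 −0.03 (adjusted p = 0.945), which turned to 0.57 with distinct positions. Without Syn1Cre animal 5 the Sox6 value was 0.92 with an adjusted p of 7.26e-05. Against GFAPCre 0 of 3 loci tested passed in edgeR, where 1.65% of 10523 loci did (1.39% higher and 0.266% lower), and 0 in DESeq2. Sox6 had 0.59 there (adjusted p = 0.110, unadjusted p = 0.00392, the only 1 of 3 under 0.05), and 0.77 (adjusted p = 0.00124) without GFAPCre animal 3.

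The SP1 groups were compared with Syn1Cre, the unfused transposase under the same Cre. The labels give an age at collection for the SP1 groups only, and no sequencing pool held Syn1Cre together with another group. The Syn1Cre tables held 443158 to 1364948 insertions, those of day 10 86842 to 95331 and those of day 28 108965 to 577609. The parts of fusion, age, pool and depth cannot be told apart. The 2 comparisons share the Syn1Cre animals, so their values are given side by side. Those animals also took part in the choice of the members, so the values at the 4 loci are not independent of that choice. At postnatal day 28 Maf fell by 1.19 on the log2 scale (SE 0.23, adjusted p = 1.50e-04), Satb1 by 1.29 (SE 0.15, adjusted p = 9.02e-08) and Zeb2 by 0.94 (SE 0.15, adjusted p = 8.28e-06), while Sox6 had 0.06 (adjusted p = 0.865). With distinct positions Zeb2 had −0.08 (adjusted p = 0.710), and in the gene body without its flanks Maf had −0.81 (adjusted p = 0.0945). That is 3 of 4 loci lower, where 51.5% of 12050 loci passed (26.2% higher and 25.3% lower). The median over the 4 loci was −1.06 against −0.06 over all loci. Of the 5 excitatory marker loci 4 were lower and 1 was higher at day 28 (median −0.65), and 4 were lower and none higher at day 10 (median −0.90), and their part in the members' falls was not tested.

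At postnatal day 10 Maf fell by 1.27 (SE 0.41, adjusted p = 0.0159) and Satb1 by 0.75 (SE 0.16, adjusted p = 5.59e-04), 2 of 4 loci lower where 40.8% of 12858 loci passed (19.6% higher and 21.2% lower). Maf entered this test only through Syn1Cre, the group for which it was chosen, so its part in that count adds no support. Sox6 had 0.00 (adjusted p = 0.998) and Zeb2 −0.29 (adjusted p = 0.102), close to the median over all loci of −0.28. With each position counted once, Satb1 had −0.03 (adjusted p = 0.896), Maf −0.80 (adjusted p = 0.157) and Zeb2 0.65 (adjusted p = 7.44e-04). The day 10 calls also depend on the scaling: with total insertions in place of edgeR's TMM factors, Maf had −0.72 (adjusted p = 0.211), Satb1 −0.19 (adjusted p = 0.332) and Zeb2 turned to 0.26, while Sox6 passed at 0.58 (adjusted p = 0.0423). That scaling raised every member's log2 fold change by 0.55 to 0.58 at day 10 and by 0.48 to 0.51 at day 28, where all 4 loci then passed, Sox6 as higher (0.57, adjusted p = 0.0294). In the other comparisons the median shift of the members with that scaling lay between −0.13 and 0.26. Without Syn1Cre_SP1_P10 animal 1, Maf had −0.89 (adjusted p = 0.123).

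Between the 2 SP1 ages, Zeb2 was lower at day 28 by 0.62 on the log2 scale (log2 fold change −0.62, SE 0.19, adjusted p = 0.0386), the only 1 of 3 loci tested that passed, where 11.1% of 3458 loci did (7.40% higher and 3.73% lower). The call was lost in 6 of 7 fits that left out 1 animal, and among animals that shared sequencing pools (−0.65, adjusted p = 0.0628). Satb1 had −0.50 (adjusted p = 0.0976) and Sox6 0.08 (adjusted p = 0.828).

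Insertions near the Zeb2 starts are given in CPM, on which scale the whole locus averaged 1815 in Syn1Cre, 2177 at day 10 and 1330 at day 28. Within 1 kb of the start in Zeb2 promoter 2, which holds 1 GC box, Syn1Cre had 44.5 ± 18.2 CPM (34.5 to 81.2, n = 6), Syn1Cre_SP1_P10 125 ± 21.4 (100 to 138, n = 3) and Syn1Cre_SP1_P28 97.3 ± 17.1 (72.7 to 112, n = 4). The day 10 animals did not overlap with Syn1Cre. Groups without SP1 had means of 88.7 in Frontflip_GFAPCre (62.3 to 116, n = 3), 79.1 in Rbp4Cre_TRAP (n = 4) and 65.7 in Syn1CreNeg. Lower means were seen in GFAPCreNeg (45.3), GFAPCre (40.6), C57bl6J (29.7) and BrokenHeart (23.5). At Zeb2 promoter 1, which holds no GC box, the means were 38.8 in Syn1Cre, 57.6 at day 10 and 71.0 at day 28. At Sox6 promoter 2, which holds 4 GC boxes, they were 13.4, 10.5 and 39.5. At Satb1 promoter 2, which holds 3, they were 0.130, 0 and 0. A link between GC boxes and insertions was not tested. These windows were picked after their values were seen and are a description.

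BrokenHeart against C57bl6J compared DNA-read with RNA-read insertions. Satb1 fell by 0.70 on the log2 scale (SE 0.18, adjusted p = 0.00212) and Zeb2 by 0.85 (SE 0.14, adjusted p = 6.34e-06), 2 of 3 loci tested where 39.9% of 1878 loci passed (18.7% higher and 21.1% lower). Counted by distinct positions the signs turned, to 0.13 at Satb1 (adjusted p = 0.624) and 0.40 at Zeb2 (adjusted p = 0.0231). With all tables thinned to the shallowest, Satb1 (adjusted p = 0.0563) and Zeb2 (adjusted p = 0.0678) did not pass. Sox6 had 0.39 (adjusted p = 0.0804). The BrokenHeart tables held 42511 to 98197 insertions against 1545951 and 2186743 in C57bl6J, and the parts of depth and of the method in these differences cannot be told apart.

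Each locus was also divided into windows of 20 kb to see where along it the differences lay, a step added after the locus values were seen. In Syn1Cre against Syn1CreNeg, where 38.1% of 11959 windows passed, all 6 Satb1 windows tested were higher, by 0.88 to 1.80. At Zeb2 3 of 8 windows were higher and none was lower. At Sox6 10 of 12 windows were lower and 1 was higher. The lower windows lay within the gene: at chr7:115860001-115880000, for example, Syn1Cre had 28.4 ± 22.2 and Syn1CreNeg 83.4 ± 17.3 (SD, n = 6 each), a fall by 1.66 (adjusted p = 2.96e-04).

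The 1 higher Sox6 window, chr7:116040001-116060000, covers the upstream end of the gene and the sequence beyond it. Syn1Cre animals 1 to 6 had 34.5, 42.9, 50.4, 57.9, 58.7 and 63.2 CPM there, and Syn1CreNeg animals 0, 0, 8.40, 12.6, 35.9 and 14.9. Only Syn1CreNeg animal 5 reached into the Syn1Cre range. The log2 fold change was 1.67 (SE 0.32, adjusted p = 3.03e-04), it stayed between 1.49 and 2.28 when any 1 animal was left out, and it was 2.28 without Syn1CreNeg animal 5. The window entered this test only through Syn1Cre. Within 1 kb of the start in Sox6 promoter 1, which lies outside this window, Syn1Cre had 10.4 ± 7.50 and Syn1CreNeg 17.9 ± 10.9 (SD, n = 6 each), with overlap.

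In the GFAP groups this window was low. GFAPCre had 11.4 to 20.4 and GFAPCreNeg 7.39 to 16.7, below all Syn1Cre animals. C57bl6J, at 29.8 and 37.0, was higher than GFAPCre by 1.16 on the log2 scale (SE 0.22, adjusted p = 2.61e-04), where 14.0% of all windows passed. Syn1Cre_SP1_P10 had 46.1, 44.6 and 42.0, within the Syn1Cre range. Rbp4Cre_TRAP had a single insertion in 4 libraries and was lower than Syn1Cre by 3.69 (log2 fold change −3.69, SE 0.84, adjusted p = 0.0150), and Syn1Cre_SP1_P28 and Frontflip_GFAPCre were lower than Syn1Cre as well, at −1.21 (adjusted p = 0.00360) and −1.72 (adjusted p = 0.0334). All windows passed at a rate of 2.07% for Rbp4Cre_TRAP, 3.75% for Frontflip_GFAPCre and 41.6% for Syn1Cre_SP1_P28. The window was picked as higher in Syn1Cre, and it entered the Rbp4Cre_TRAP and Frontflip_GFAPCre tests only through Syn1Cre. The adjusted p values of the tests against Syn1Cre, that of Syn1Cre_SP1_P28 included, therefore add no support.

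**Figure D3:**
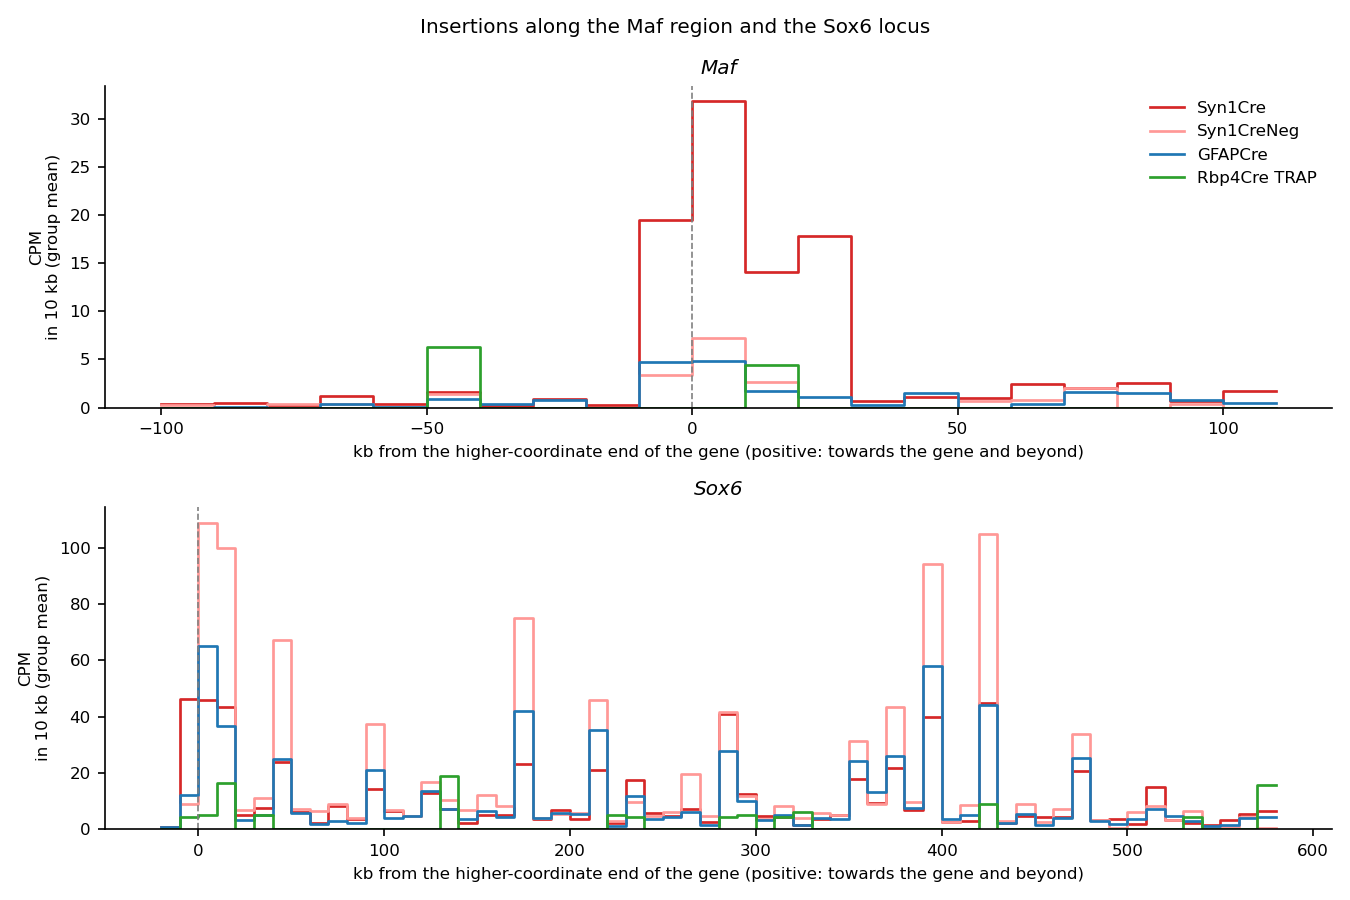
Mean CPM in 10 kb bins (y axis) along the Maf region and the Sox6 locus, against distance in kb from the gene's higher-coordinate end (x axis), for Syn1Cre, Syn1CreNeg, GFAPCre and Rbp4Cre_TRAP. At Maf the Syn1Cre line is the highest on both sides of the gene, and at Sox6 Syn1CreNeg is the highest over most of the gene while Syn1Cre is the highest at its upstream end.

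The values at 2 single positions inside Sox6 follow. The one with the most in the locus, 115616147, had 437 insertions in 41 of the 47 tables, with 13.8 ± 9.20 CPM in Syn1Cre and 57.7 ± 23.5 in Syn1CreNeg (SD, n = 6 each). A position at 116031816, 8.96 kb inside the upper end, had 220 insertions, with group means of 0.781 in C57bl6J, 6.49 in Syn1Cre, 30.0 in Syn1CreNeg and 36.5 in Frontflip_GFAPCre. It lies near Sox6 promoter 2, and within 1 kb of that start Frontflip_GFAPCre had 81.7 ± 33.2 (n = 3) and C57bl6J 2.93 (n = 2). These positions were named for their totals over all tables.

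The Sox6 windows were counted in other comparisons too. GFAPCre was lower than GFAPCreNeg in 5 of 12 windows and higher in none, where 7.35% of all windows passed. At day 28 the SP1 group was higher than Syn1Cre in 5 of 18 Sox6 windows and lower in 1, the upstream one, where 41.6% passed. At day 10 it was higher in 3 of 19 and lower in none, where 28.5% passed. At both ages the share of Sox6 windows that passed lay below that of all windows, so neither count sets Sox6 apart. The window chr7:115700001-115720000 was higher at both ages, with 4.91 in Syn1Cre against 19.9 at day 28 (log2 fold change 1.89, adjusted p = 3.76e-04) and 33.2 at day 10 (2.37, adjusted p = 0.00504).

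Sums over marker loci were set beside Sox6, whose total over the locus did not follow the interneuron-lineage loci described below. The summed level of 6 astrocyte loci (Aqp4, Slc1a2, Slc1a3, Aldh1l1, Gfap and Gja1) in Syn1Cre animals 1 to 6 was 541, 629, 598, 734, 1756 and 771 CPM, and animal 5, the highest, was also the highest at Sox6. In Syn1CreNeg it ranged from 1847 to 2475, in GFAPCre from 724 to 1479, in GFAPCreNeg from 1310 to 2682 with animal 6 the highest there as at Sox6, in C57bl6J from 435 to 466 and in Rbp4Cre_TRAP from 179 to 492. It ranged from 1567 to 2258 in Frontflip_GFAPCre, from 892 to 1957 in Syn1Cre_SP1_P28 and from 509 to 789 in BrokenHeart. Not all groups followed Sox6: Syn1Cre_SP1_P10 had 766 to 1047, with Sox6 near the Cre-negative levels at 850 to 1047. N2a had 79.4, with Sox6 at 911. In Syn1Cre against Syn1CreNeg 5 of 5 astrocyte loci tested were lower, where 17.5% of all loci were, with a median of −1.21. The part of these marker loci in the Sox6 result was not tested.

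**Figure D4:**
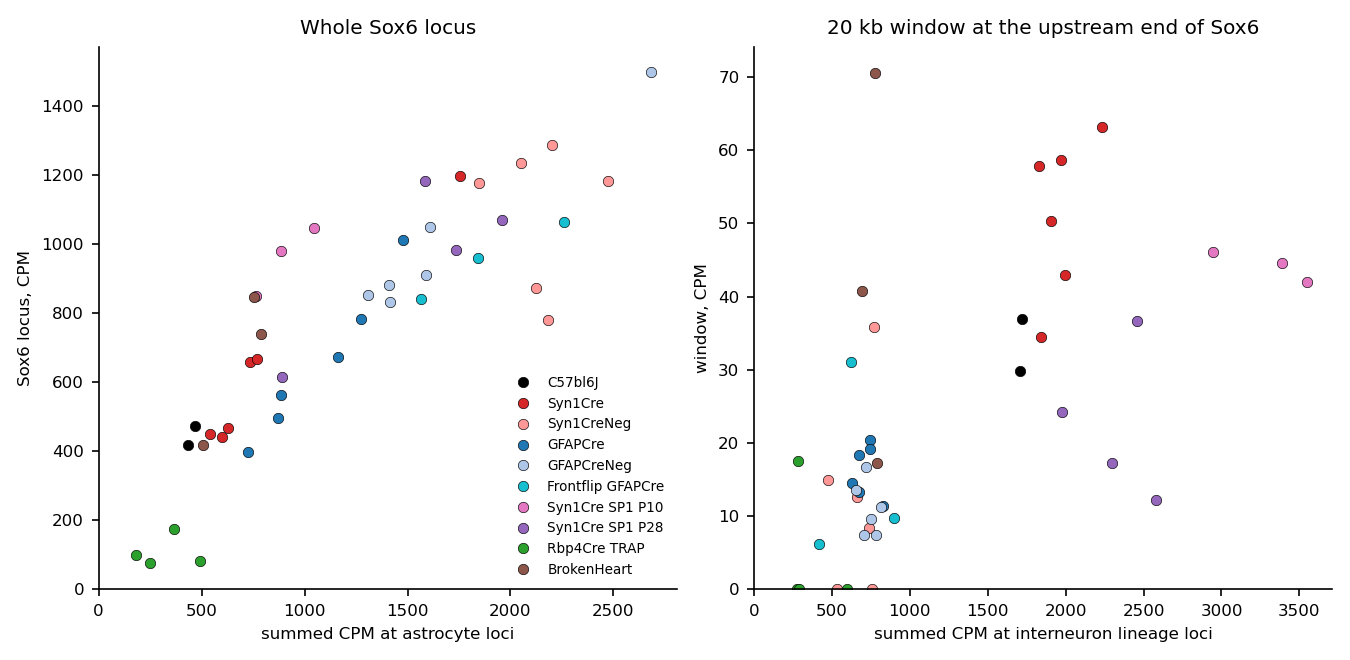
Left, CPM over the Sox6 locus (y axis) against the summed level of the astrocyte loci (x axis); right, the 20 kb window at the upstream end of Sox6 (y axis) against the summed level of the interneuron-lineage loci (x axis), 1 point per animal of 10 groups. Syn1Cre animal 5 is the Syn1Cre point at 1196 and 1756 in the left panel, within the Cre-negative points. N2a is not drawn.

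A list of 19 loci of the interneuron lineage gave the setting for Maf. It holds regulators (Nkx2-1, Lhx6, Lhx8, the Dlx genes, Sp8, Sp9, Npas1, Prox1 and Nr2f2) and interneuron products (Gad1, Gad2, Slc32a1, Sst, Pvalb, Vip and Erbb4). In Syn1Cre against Syn1CreNeg 12 were tested, 10 were higher and none was lower, where 13.5% of all loci were higher, with a median of 1.99 against 0.01 over all loci. Some of the 12, among them the inhibitory markers tested, entered the test only through Syn1Cre, where they were high. The count is therefore a description. The excitatory markers moved with the list: 3 of 4 tested were higher and none was lower, with a median of 0.48. The highest in the interneuron list were Sst, which encodes the peptide somatostatin, at 2.89 (adjusted p = 4.26e-06), Lhx6, a LIM homeobox factor, at 2.75 (adjusted p = 2.11e-05), and Sp9, at 2.48 (adjusted p = 1.39e-06). In GFAPCre against GFAPCreNeg the 8 loci tested had a median of −0.18, against 0.02 over all loci.

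In the other comparisons the list was counted in the same way. C57bl6J was higher than GFAPCre at 14 of 15 loci tested, where 7.03% of all loci were higher, and lower at none, led by Sst (2.76, adjusted p = 1.20e-08), Gad2 (2.53, adjusted p = 1.34e-10) and Dlx5 (2.32, adjusted p = 7.29e-11). Loci low in GFAPCre could enter this test through C57bl6J alone, and the list was chosen with earlier results of these data known. The count of C57bl6J against GFAPCre is therefore a description. Frontflip_GFAPCre was lower than Syn1Cre at 10 of 14, where 0.909% of all loci were, and higher at none. That count is a description too, since the inhibitory markers in it entered the test only through Syn1Cre. For Rbp4Cre_TRAP no count is given, since 9 of the 19 loci were at 0 in all its libraries and could enter the test only through Syn1Cre. At day 10, by contrast, SP1 was higher than Syn1Cre at 9 of 15 loci, where 19.6% of all loci were higher, led by Npas1 (2.27, adjusted p = 0.00465), Lhx6 (1.78, adjusted p = 2.71e-05) and Slc32a1 (1.59, adjusted p = 0.00168), and lower at Erbb4 alone (−0.76, adjusted p = 0.00128), whereas Maf fell. At day 28 2 of 13 were higher and 2 were lower, where 26.2% of all loci were higher and 25.3% lower.

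The summed level of the interneuron list was 1827 to 2235 CPM in Syn1Cre, 1705 and 1722 in C57bl6J, 476 to 768 in Syn1CreNeg, 631 to 829 in GFAPCre, 416 to 900 in Frontflip_GFAPCre and 278 to 599 in Rbp4Cre_TRAP, where 9 of the 19 loci were at 0. Its group means were highest in the SP1 groups, which ranged from 2948 to 3546 on day 10 and from 1978 to 2582 on day 28. Of 3 inhibitory neuron markers Gad1 and Slc32a1 were at 0 in all Rbp4Cre_TRAP libraries, while the 5 excitatory markers summed to 1017 to 1352 there and to 768 to 925 in Syn1Cre.

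Paralogs of the 4 factors, 8 loci in all, were counted in the same comparisons. In Syn1Cre against Syn1CreNeg 3 were tested: Zeb1, the Zeb2 paralog, was lower (−1.21, adjusted p = 5.00e-05), while Zeb2 itself had 0.09, and the other two did not pass. In GFAPCre against GFAPCreNeg Zeb1 was lower as well (−0.73, adjusted p = 5.51e-04) and Nrl, a large MAF factor known from rod photoreceptors, was higher (1.11, adjusted p = 0.00745). In both SP1 comparisons 2 of 4 were higher and 1 was lower, where 51.5% of all loci passed at day 28 and 40.8% at day 10: at day 10 Mafg, a small MAF factor (2.88, adjusted p = 1.12e-07), and Nrl (1.61, adjusted p = 1.22e-04) were higher, and Sox5, the SoxD partner of Sox6 (−1.58, adjusted p = 4.49e-09), was lower. In Rbp4Cre_TRAP against Syn1Cre Sox5 had 0.14 (adjusted p = 0.689).

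The loci whose group means were most like those of each member were ranked by Pearson's r of log2(mean + 1) over 10 groups, among 9434 loci with a mean of at least 20 CPM. For Maf they were Sp9 (0.96), Dlx5 (0.96), Cux1 (0.95), Dlx2 (0.95) and Znrf1 (0.91). For Sox6 they were 1700029P11Rik, Ntsr2, Tex12, Sncaip and Tmem170b, all at 0.99. For Satb1 the first was Tcte2 (0.93) and for Zeb2 Ak9 (0.93). Between the members themselves r was 0.67 for Satb1 and Zeb2, 0.64 for Maf and Sox6, 0.01 for Maf and Satb1 and −0.65 for Sox6 and Satb1. The groups differ in depth and share libraries' processing, and Maf's mean of 0 in Rbp4Cre_TRAP enters its values, so these are descriptions without a test.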

How the data were processed

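The 47 tables come from 194 sequenced samples: 46 animals and 1 cell line table. Each line of a deposited table is 1 insertion with its position, strand and a count of reads, as the authors called it. The submitters' processing notes name Novoalign, Bowtie2 and mm10, without versions. No table lacked a sample. Lines, not reads, were counted per locus (gene body in RefSeq GRCm38.p6 plus 10 kb), and values are insertions in the locus for 1000000 insertions of the table (CPM). Tables held 2341 to 2186743 insertions, at most 0.0818% of them outside chromosomes 1 to 19 and X. Positions lay at TTAA in 100.0% of SRT and 96.5 to 97.7% of BrokenHeart positions inside known promoter sequence. Intervals and floors cover counting error only.

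The tests used edgeR 4.0.16 (quasi-likelihood, TMM, filterByExpr, Benjamini-Hochberg over all loci, threshold 0.05) in R 4.3.3 with limma 3.58.1. They covered 13 comparisons, each fitted on its own groups, with up to 24 alternatives each, among them DESeq2 1.42.0. The split by animal layout and the 20 kb windows were alternatives chosen after seeing the data. The fit was tested on simulated data. Python 3.11.15, pandas 2.3.3 and matplotlib 3.10.9 did the rest. Replicate numbers did not pair the animals: no comparison had all pairs correlated above 0.1 (lowest −0.21, highest 0.17). The members, the lists and the windows were chosen with earlier results of these data known. The text names the members everywhere and, of each list, at most the 3 highest and 3 lowest loci past the threshold; windows, positions and promoters were picked after their values were seen. Frontflip_GFAPCreNeg entered no comparison because of its depth. Some loci of the lists are not reported here and enter no count or sum of a list.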

Additional observations from a re-analysis of the deposited data

Results flagged for a closer look

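Among 29 groups of 4 to 10 animals searched for a value far from the rest, 3 held one, and chance alone gives about 1 in 20 groups. At Sox6, Syn1Cre animal 5 had 1196 CPM, with the next animal at 667, a gap of 0.702 of the group's range. That animal's summed astrocyte loci, 1756, were also the highest of the 6, the next being 771, and its 3 inhibitory marker loci, 67.7, the lowest. At Sox6, GFAPCreNeg animal 6 had 1500, with the next animal at 1050, a gap of 0.674 of the range, and its astrocyte loci summed to 2682 against 1310 to 1607 in the other 5. At Zeb2, Rbp4Cre_TRAP animal 4 had 1926, with the next at 2245, a gap of 0.844 of the range over 4 libraries.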

How the results depend on the processing

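Over all alternatives the members' fold changes kept their direction and their side of the threshold in 956 cases, lost the threshold in 33, gained it in 24 and changed sign in 55. In the comparison without a test, 4 moved by at least the SD between animals within the groups, on the log2 scale. The cause was not tested unless stated. Sign changes in which a call was made or lost all came from counting each position once, which removes repeated insertions at a position: Zeb2 in Syn1Cre against Syn1CreNeg (−0.39), in Syn1Cre_SP1_P10 against Syn1Cre (0.65), in BrokenHeart against C57bl6J (0.40) and in Frontflip_GFAPCre against Syn1Cre (0.57), and Satb1 in BrokenHeart against C57bl6J (0.13). Sox6 in Syn1Cre against GFAPCre turned to 0.05 with it, and leaving out 1 animal moved it between −0.33 and 0.10 (0.03, 0.03, 0.04 and 0.10 without Syn1Cre animals 1, 2 and 3 and GFAPCre animal 3). Maf there had 1.99 with distinct positions.

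The other sign changes were between values that passed on neither side. With distinct positions they were Satb1 in GFAPCre against GFAPCreNeg (−0.04), Frontflip_GFAPCre against GFAPCre (0.15) and Rbp4Cre_TRAP against Syn1Cre (0.37), Zeb2 in C57bl6J against Syn1Cre (−0.23) and against GFAPCre (−0.15), and Sox6 between the SP1 ages (−0.07). With total insertions they were Zeb2 in Syn1Cre_SP1_P10 against Syn1Cre (0.26) and C57bl6J against Syn1Cre (−0.08), Satb1 in Rbp4Cre_TRAP against Syn1Cre (0.03) and Sox6 between the SP1 ages (−0.01). In gene bodies they were Zeb2 in GFAPCre against GFAPCreNeg (0.03) and Syn1Cre_SP1_P10 against Syn1Cre (0.16), and Sox6 between the SP1 ages (−0.08). With 50 kb flanks they were Zeb2 in Syn1Cre against Syn1CreNeg (−0.02) and Frontflip_GFAPCre against Syn1Cre (0.03), and the Maf region in GFAPCre against GFAPCreNeg (−0.01). Without a filter they were Sox6 in BrokenHeart against C57bl6J (−0.13) and Zeb2 in Rbp4Cre_TRAP against Syn1Cre (−0.19). With at least 2 reads they were Zeb2 in GFAPCre against GFAPCreNeg (0.02) and Rbp4Cre_TRAP against Syn1Cre (−0.27). With thinning they were Zeb2 in GFAPCre against GFAPCreNeg (0.05) and Satb1 in Rbp4Cre_TRAP against Syn1Cre (0.01). Among pool-sharing animals they were the Maf region (−0.08) and Zeb2 (0.01) in GFAPCre against GFAPCreNeg and Sox6 between the SP1 ages (−0.03). With 1 animal left out, the Maf region (−0.06 to 0.23) and Zeb2 (−0.05 to 0.05) in GFAPCre against GFAPCreNeg spanned 0. So did Sox6 in Syn1Cre_SP1_P28 against Syn1Cre (−0.07 to 0.34), between the SP1 ages (−0.03 to 0.26) and in BrokenHeart against C57bl6J (−0.05 to 0.46). Zeb2 did so in Frontflip_GFAPCre (−0.08 to 0.02), Rbp4Cre_TRAP (−0.11 to 0.13) and C57bl6J (−0.05 to 0.12) against Syn1Cre.

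The number of members past the threshold changed as follows. In Syn1Cre against Syn1CreNeg 3 with Maf passed with any 1 animal left out, 4 with distinct positions (Zeb2 as lower), and 2 in gene bodies and with thinning, where Maf was not tested. In Syn1Cre_SP1_P28 against Syn1Cre, 3 became 4 with total insertions, and 2 with distinct positions (without Zeb2), in gene bodies (without Maf) and with thinning (Maf was not tested). In Syn1Cre_SP1_P10 against Syn1Cre, 2 became 3 without a filter (Zeb2 added), 1 with total insertions (Sox6), 1 with distinct positions (Zeb2, as higher), 1 with thinning (Satb1; Maf was not tested) and 0 in gene bodies, with 1 to 2 when an animal was left out. In Syn1Cre_SP1_P28 against Syn1Cre_SP1_P10, 1 became 0 without a filter, with 50 kb flanks and among pool-sharing animals, 2 in gene bodies, and 0 to 1 without 1 animal. In BrokenHeart against C57bl6J, 2 became 3 with total insertions and with at least 2 reads (Sox6 added), 1 with distinct positions (Zeb2, as higher) and 1 with thinning (Sox6), and 2 to 3 without 1 animal. In Frontflip_GFAPCre against Syn1Cre, 2 with Maf became 1 in gene bodies, 2 others with distinct positions (Maf and Zeb2), and 1 to 3 without 1 animal. In Frontflip_GFAPCre against GFAPCre, 0 became 1 without a filter and 2 with distinct positions, and 0 to 1 without 1 animal. In Rbp4Cre_TRAP against Syn1Cre, 2 with Maf became 3 with distinct positions (Zeb2 added) and 1 with DESeq2 (which gave Maf no adjusted p), in gene bodies and with thinning (Maf was not tested). In C57bl6J against GFAPCre, 2 became 1 with distinct positions, 3 without a filter (Sox6 added) and with at least 2 reads (Zeb2 added), and 1 to 3 without 1 animal. GFAPCre against GFAPCreNeg gave 0 to 1 and Syn1CreNeg against GFAPCreNeg 0 to 2 without 1 animal.

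With the replicate number as a block, although the numbers share only a label, Syn1Cre against Syn1CreNeg gave 3 calls (Maf 2.36, Sox6 −0.82, Satb1 1.14). The block moved the count to 2 in Syn1Cre_SP1_P28 against Syn1Cre_SP1_P10, to 1 in BrokenHeart against C57bl6J and to 1 in Frontflip_GFAPCre against GFAPCre. It moved 2 to 3 in Syn1Cre_SP1_P10 and in Frontflip_GFAPCre against Syn1Cre (Sox6 added) and in C57bl6J against GFAPCre (Zeb2 added). In C57bl6J against Syn1Cre it turned Sox6 to 0.18 and Satb1 to 0.06, and in Frontflip_GFAPCre against Syn1Cre Zeb2 to 0.02, none past the threshold.

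Depth limits Maf most: 1 insertion decides values in the Rbp4Cre_TRAP, BrokenHeart and day 10 tables.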

Other observations

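The strand of the insertions at Sox6, Satb1 and Zeb2 differed between groups, in values picked after they were seen and not tested. The plus share over all insertions of a group is not given here. At Sox6, a minus-strand gene, 68.6 to 70.0% of the insertions of the 6 Syn1Cre animals and 69.3% and 69.4% of those in C57bl6J were on the plus strand, against 51.2, 43.9 and 36.1% in the 3 DNA-read BrokenHeart tables. Sox6 also had 74.1, 75.5 and 74.1% in Syn1Cre_SP1_P10, above all Syn1Cre animals, and 68.5 to 82.2% in Syn1Cre_SP1_P28, which overlapped with Syn1Cre. At Zeb2, also a minus-strand gene, the plus share was 49.6 to 51.9% in Syn1Cre, 69.7, 70.1 and 66.4% in Syn1Cre_SP1_P10 and 57 to 62.4% in Syn1Cre_SP1_P28, with no overlap between these groups. At Satb1 it was 59.8 to 64.3% in Syn1Cre, below the 71.7, 74.6 and 79.2% in Syn1Cre_SP1_P10 and the 65.7 to 75.6% in Syn1Cre_SP1_P28. Over all tables the plus share was 34.6% at Maf, 69.4% at Sox6, 63.6% at Satb1 and 51.7% at Zeb2. Single positions could be almost wholly of 1 strand: at Satb1, 98.6% of 145 insertions at 51813797 and 98.5% of 133 at 51811324 were on the plus strand.

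The 3 shallow Frontflip_GFAPCreNeg tables, used in no comparison, held 22, 8 and 11 insertions at Sox6 (2292, 3417 and 1942 CPM), 6, 3 and 7 at Zeb2 and none at Maf. Their 0 of 17606 insertions at Maf allow a level of up to 170 CPM, above every animal measured.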
